A study of Homo sapiens with 6 samples.

Results

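The genes described here write the methyl mark on DNA, read it, or remove acetyl groups from histones: the DNA methyltransferases DNMT1, DNMT3A and DNMT3B, the remodelling ATPase HELLS, the methyl-CpG binding proteins MBD1, MBD2 and MBD4, and the histone deacetylases HDAC1 and HDAC2. They were taken as every probe set that the platform annotation assigns to exactly 1 of these 9 symbols, which gave 16 of 22215 probe sets. All 9 genes were represented: MBD2 and MBD4 by 4 probe sets each, MBD1 by 2, and the other genes by 1 each. Expression was measured on Affymetrix arrays of biotin-labelled total RNA from 2 human colon cancer cell lines, with 3 arrays per line. HCT116 is an established line that the labels call poorly metastatic. E1 is labelled as a metastatic line derived in vivo, and its cell line field also reads HCT116; neither treatment nor genetic change is named for either line, and whether E1 is a single clone is not stated. The labels do not say whether the arrays of a line came from separate cultures, so p-values reflect the spread of these arrays alone, possibly a technical one.

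Methylation of cytosine in CpG pairs is copied to the new strand at replication mainly by DNMT1, which is brought to the replication fork in part by the clamp protein PCNA, while DNMT3A and DNMT3B place the mark on unmethylated DNA. HELLS, also called LSH, opens nucleosomal DNA for the methyltransferases. MBD1 and MBD2 bind methylated CpG and bring in repressors, among them the NuRD and Sin3 complexes that contain HDAC1 and HDAC2, and MBD4 is a glycosylase that removes thymine from the mismatches left by deaminated methylcytosine. HCT116 is widely used to study these enzymes, since lines lacking DNMT1 and DNMT3B were made from it.

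Promoters of MBD1, HELLS and HDAC1 are shown first, because these were the genes with a probe set whose arrays did not overlap between the lines. Each run covers 250 bases before to 50 bases after the start of the gene, 300 bases read 5′ to 3′ along the gene, from RefSeq on GRCh38.p14, with every CpG pair in capitals. The windows are MBD1 at chr18:50281718-50282017 on the minus strand, HELLS at chr10:94545538-94545837 on the plus strand and HDAC1 at chr1:32291833-32292132 on the plus strand.
MBD1: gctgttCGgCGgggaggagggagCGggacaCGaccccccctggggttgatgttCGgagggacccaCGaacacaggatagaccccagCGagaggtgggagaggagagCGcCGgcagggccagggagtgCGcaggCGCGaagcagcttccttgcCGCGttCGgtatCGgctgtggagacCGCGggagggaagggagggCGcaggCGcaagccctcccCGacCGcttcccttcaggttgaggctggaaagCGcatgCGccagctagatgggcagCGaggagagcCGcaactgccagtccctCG
HELLS: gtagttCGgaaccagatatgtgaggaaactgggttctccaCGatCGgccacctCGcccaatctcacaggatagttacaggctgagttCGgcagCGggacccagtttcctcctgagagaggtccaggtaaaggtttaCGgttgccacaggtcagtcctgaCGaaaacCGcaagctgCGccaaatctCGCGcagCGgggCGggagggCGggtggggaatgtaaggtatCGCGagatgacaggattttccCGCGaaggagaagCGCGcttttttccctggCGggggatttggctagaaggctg
HDAC1: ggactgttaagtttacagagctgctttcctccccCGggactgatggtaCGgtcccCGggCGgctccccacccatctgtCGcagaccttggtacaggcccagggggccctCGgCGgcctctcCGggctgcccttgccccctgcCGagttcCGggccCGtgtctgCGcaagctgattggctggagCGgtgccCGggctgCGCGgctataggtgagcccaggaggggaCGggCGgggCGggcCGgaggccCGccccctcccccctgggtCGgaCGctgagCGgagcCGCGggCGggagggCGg
The MBD1 window held 27 CpG pairs, that of HELLS 22 and that of HDAC1 28, and the median over 35114 such windows was 14. The motif TTTNNCGC, a form of the E2F site whose last letters include a CpG, was searched on both strands and occurred in 6.89% of all windows. It was found 2 times in the HELLS window, with first bases at 175 on the reverse strand and 243 on the forward strand counted from the 5′ end of the window, and was not found in those of MBD1 and HDAC1. The window of DNMT1, not shown, held 1 match, at base 249 on the reverse strand. The motif CCAAT, which does not overlap these matches, occurred in 34.6% of all windows, and HELLS and HDAC1 each held 1. These matches describe the letters only, and no methylation was measured in this study.

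Values are deposited linear intensities per probe set. Differences are E1 minus HCT116 on the scale of log2(intensity + 32). Each has the standard error (SE) and the Benjamini-Hochberg adjusted p of limma fitted over all 22215 probe sets, and a probe set is called at an adjusted p under 0.05. The offset understates changes of dim probe sets. Arrays 2 and 3 of E1 stood apart from the other 4: the ratio of 3′ to 5′ signal of the GAPDH control probe sets was 34.1 and 71.9 there, against 0.774 to 0.811 on the HCT116 arrays and E1 array 1. Differences with E1 array 1 alone are therefore given for all 16 probe sets of the 9 genes and for part of the other genes named. Values given without them may also depend on E1 arrays 2 and 3. The epithelial markers KRT18, KRT19 and EPCAM were bright on all arrays, whereas KRT8 read 4693, 3169 and 4352 in HCT116, 2862 on E1 array 1 and 372 and 103 on E1 arrays 2 and 3. The summed intensity of the 8 colon epithelial markers was 16776 to 19407 in HCT116 and 11469 to 14575 in E1, without overlap. The intestinal markers CDX1, CDX2 and VIL1 read between 2.18 and 22.5 on every array. Of 9 fibroblast, 7 leukocyte and 5 endothelial marker genes none was called, and their summed intensities were 413 to 462 in HCT116 and 305 to 456 in E1, 282 to 378 and 304 to 498, and 92.0 to 112 and 97.2 to 134. The fibroblast probe sets of smallest p were COL1A1 (202310_s_at) at 0.88 (adjusted p = 0.0761) and COL1A2 at -0.29. The other COL1A1 probe sets stood at 0.22 and -0.10 and, for the brightest, 217430_x_at, at -0.28. Those of smallest p for leukocytes were LAPTM5 at 0.57 and CD53 at 0.50, and for endothelium VWF at 0.36 and TEK at 0.32. For colon epithelium they were KRT18 at -0.40 and CDH1 (201130_s_at) at -1.18. This CDH1 probe set stood at -0.28 with E1 array 1 alone and at -1.63 with the mean of E1 arrays 2 and 3. The brighter CDH1 probe set, 201131_s_at, overlapped between the lines and stood at 0.03.

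Among the 16 probe sets, 1 was called, a probe set of MBD1 that was lower in E1, and 0 were called higher. Over the whole array 0.77% of probe sets were called in either direction, 0.554% lower and 0.216% higher. Arrays of the lines did not overlap for 3 of the 16, which were 1 probe set of MBD1 and that of HELLS, both lower in E1, and that of HDAC1, higher in E1. Of all probe sets 20.5% did not overlap, 13% lower and 7.45% higher, so this share was near the background. At unadjusted p under 0.05, 2 of the 16 were lower and 1 was higher, beside 11.7% and 4.75% of all probe sets, or 16.5% in either direction. The median difference of the 16 was -0.13, beside -0.02 over all probe sets. On every array 9 of the 16, from 7 of the 9 genes, lay above the array median, the exceptions among the genes being DNMT3A and HELLS.

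**Figure D1:**
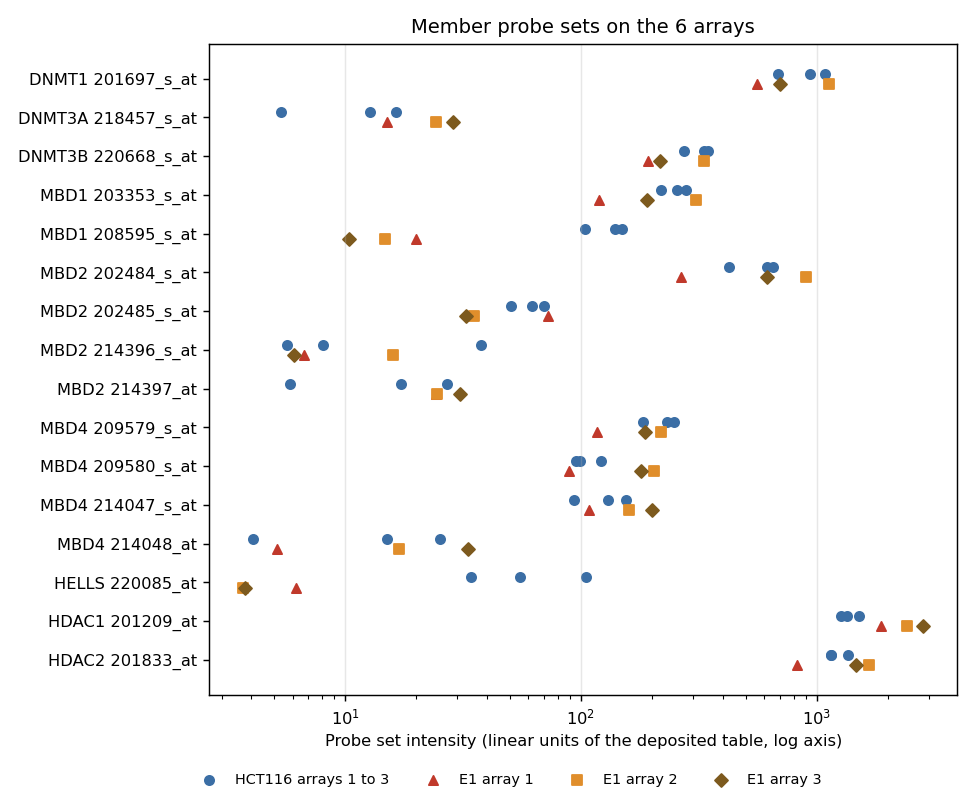
Intensity of each of the 16 probe sets on the 6 arrays, with intensity on a logarithmic axis and 1 point per array; circles are HCT116 and triangles, squares and diamonds E1 arrays 1, 2 and 3. The lines separate for MBD1 208595_s_at, HELLS and HDAC1, and for 9 of the 16 probe sets E1 array 1 lies below all HCT116 arrays.

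DNMT1, the maintenance methyltransferase, did not differ between the lines beyond the spread of the arrays. Its probe set 201697_s_at read 1088, 684 and 939 in HCT116 and 560, 1127 and 699.8 in E1. The lowest and the highest of the 6 values both came from E1, so the groups overlapped. The difference was -0.21 (SE 0.29, adjusted p = 0.810), with a 95% interval of -0.92 to 0.50 that includes changes of either sign. With E1 array 1 alone it was -0.64, whereas the mean of E1 arrays 2 and 3 lay at 0.0015.

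The de novo methyltransferases were not called either. DNMT3B (220668_s_at) read 346, 274 and 333 in HCT116 and 193, 333 and 218 in E1. E1 arrays 1 and 3 lay below all HCT116 arrays, while E1 array 2 lay within them, and the difference was -0.34 (SE 0.21, adjusted p = 0.485). DNMT3A (218457_s_at) read 5.37, 12.8 and 16.4 in HCT116 and 15.1, 24.3 and 28.6 in E1. All 3 HCT116 values lay below the lower quartile of their array, so the order among them cannot be read, and the difference was 0.33 (SE 0.16, adjusted p = 0.373). With E1 array 1 alone DNMT3B stood at -0.63 and DNMT3A at 0.12.

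HELLS, the remodeller that assists the methyltransferases, was lower on all 3 E1 arrays but was not called. Its probe set 220085_at read 105, 34.3 and 55.1 in HCT116 and 6.19, 3.70 and 3.78 in E1. Every E1 value lay below the lower quartile of its array, at 13.0 to 16.3, whereas no HCT116 value did. The difference was -1.34 (SE 0.27, adjusted p = 0.09998), with a 95% interval of -1.99 to -0.69. With E1 array 1 alone it was -1.28, close to the value with all arrays. An offset of 1 in place of 32 gave -3.45 (adjusted p = 0.0316), which is past the threshold. This was the only call among 10 alternatives that kept all arrays. An offset of 100 gave -0.63 (adjusted p = 0.182) and the GAPDH ratio as a covariate -1.28 (adjusted p = 0.343). That ratio is high only on E1 arrays 2 and 3, so the covariate fit largely repeats the comparison of E1 array 1 with HCT116. Leaving out 1 array gave 0 calls in 6 fits, at -1.58 to -1.06 and adjusted p of 0.0545 to 0.294.

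MBD1, a methyl-CpG binding repressor, gave different results with its 2 probe sets. Probe set 208595_s_at read 139.7, 149.8 and 104.5 in HCT116 and 20.0, 14.8 and 10.4 in E1. Every E1 array lay below every HCT116 array, and the means were 131 ± 23.8 (SD, n = 3) and 15.1 ± 4.80 (SD, n = 3). The probe set fell by 1.79 on the log2 scale (SE 0.16, adjusted p = 0.0167) and was number 30 of all probe sets by p. The difference was of like size with E1 array 1 alone, at -1.64, and with the mean of E1 arrays 2 and 3, at -1.86. Probe set 203353_s_at read 280.1, 257 and 219 in HCT116 and 119.9, 309 and 191 in E1. Here E1 array 2 was the highest of all 6 arrays and E1 array 1 the lowest, so the lines overlapped, and the difference was -0.32 (SE 0.30, adjusted p = 0.674). It was -0.90 with E1 array 1 alone and -0.83 with the GAPDH ratio as a covariate, which is not a separate check of the former. Leaving out 1 array gave -0.62 to -0.03, the latter without E1 array 1. On E1 array 1 both probe sets lay below all HCT116 arrays.

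The decrease of 208595_s_at kept its direction in every analysis, but the call did not always hold. It was lost when any HCT116 array or E1 array 2 or 3 was left out, at adjusted p of 0.0675 to 0.131 and differences of -1.91 to -1.71. It was kept without E1 array 1, at -1.86 (adjusted p = 0.00450), where the count of calls over the array went from 171 to 2358. MBD1 is known to be spliced into several isoforms, and which of them each probe set detects was not tested.

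The 3 genes whose values over the 6 arrays were most like those of MBD1 208595_s_at, ranked by the root mean square difference of centred log2 values among 11962 genes, were RITA1 at 0.156, TRABD at 0.168 and glutathione reductase, GSR, at 0.189. For comparison, the centred values of the MBD1 probe set itself had a root mean square of 0.907. RITA1 read 221, 227 and 165 in HCT116 and 40.8, 58.1 and 33.3 in E1. GSR read 923, 771 and 889.9 in HCT116 and 271, 216 and 180.2 in E1. All 3 genes were lower on every E1 array, with differences of -1.64, -2.03 and -1.82. Their fall follows from the choice by likeness to this probe set on the same arrays.

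**Figure D2:**
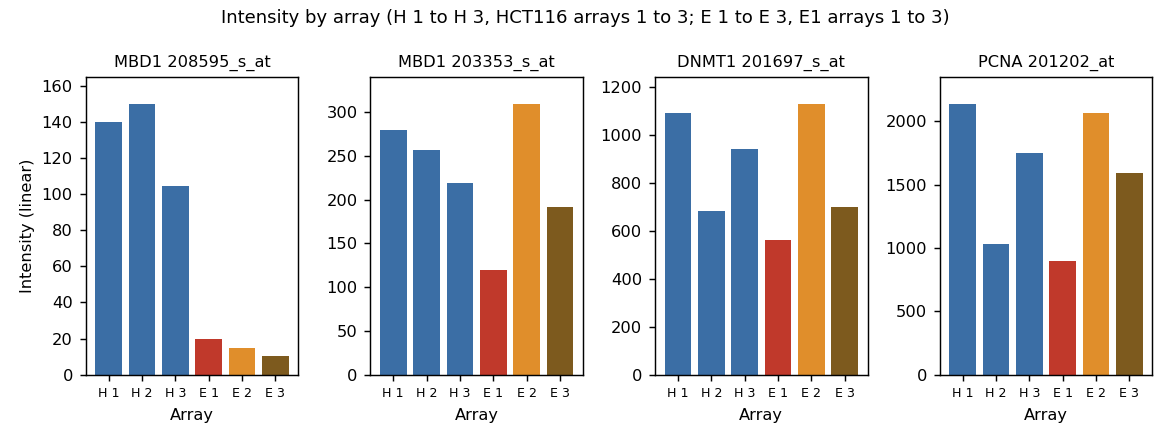
Intensity (linear axis from 0) on each of the 6 arrays for the 2 probe sets of MBD1, for DNMT1 and for PCNA; blue bars are HCT116 arrays 1 to 3 and the other bars E1 arrays 1 to 3. MBD1 208595_s_at stays at or below 20.0 on all E1 arrays, while MBD1 203353_s_at reaches its highest value, 309, on E1 array 2; DNMT1 and PCNA are both lowest on E1 array 1.

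MBD2, the reader that joins the NuRD complex to methylated DNA, was not called with any of its 4 probe sets. Probe set 202484_s_at read 653, 427 and 618 in HCT116 and 267, 903 and 613 in E1. E1 array 1 was the lowest and E1 array 2 the highest of the 6, and the difference was -0.06 (SE 0.43, adjusted p = 0.973), or -0.98 with E1 array 1 alone. In probe set 202485_s_at, E1 array 1 was instead the highest of the 6: it read 50.4, 70.02 and 62.0 in HCT116 and 72.5, 35.2 and 32.7 in E1, a difference of -0.27 (SE 0.22, adjusted p = 0.623), or 0.18 with E1 array 1 alone. Probe sets 214396_s_at and 214397_at stayed below the array median on all 6 arrays and stood at -0.19 and 0.29, or -0.29 and 0.23 with E1 array 1 alone.

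MBD4, the thymine glycosylase, was likewise not called, and its probe sets differed in sign. Probe set 209579_s_at read 247, 232 and 184 in HCT116 and 117, 218 and 187 in E1, a difference of -0.32 (SE 0.22, adjusted p = 0.546). Probe set 209580_s_at read 122, 99.7 and 95.2 in HCT116 and 89.4, 205 and 180.3 in E1, a difference of 0.41 (SE 0.27, adjusted p = 0.509). They stood at -0.75 and -0.18 with E1 array 1 alone. In both, E1 array 1 was the lowest of the 6 arrays, and they part on E1 arrays 2 and 3, which overlapped HCT116 in the first and lay above it in the second. Probe sets 214047_s_at and 214048_at stood at 0.24 and 0.09, the latter dim on all arrays, or -0.16 and -0.31 with E1 array 1 alone. Without E1 array 1, probe set 209580_s_at was called higher, at 0.71 (adjusted p = 0.0399). That fit rests on the 2 E1 arrays with low 5′ signal. It called 2358 of all 22215 probe sets, against 171 in the main fit.

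HDAC1 and HDAC2, the catalytic subunits shared by the Sin3, NuRD and CoREST complexes, were bright on every array and neither was called. HDAC1 (201209_at) read 1272, 1348 and 1519 in HCT116 and 1874, 2424 and 2841 in E1. All E1 arrays lay above all HCT116 arrays, E1 array 1 by the least, and the difference was 0.76 (SE 0.18, adjusted p = 0.140), with a 95% interval of 0.32 to 1.20. It was 0.44 with E1 array 1 alone and 0.92 without it. In the latter fit HDAC1 was called (adjusted p = 0.0204), as were 2358 of all 22215 probe sets, against 171 in the main fit. The low 5′ signal of E1 arrays 2 and 3 thus moved with the size of this difference. Its part in the result was not tested. HDAC2 (201833_at) read 1362, 1156 and 1152 in HCT116 and 823, 1662 and 1466 in E1. E1 array 1 lay below and the other 2 E1 arrays above all HCT116 arrays, and the difference was 0.05 (SE 0.27, adjusted p = 0.966), or -0.55 with E1 array 1 alone.

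**Figure D3:**
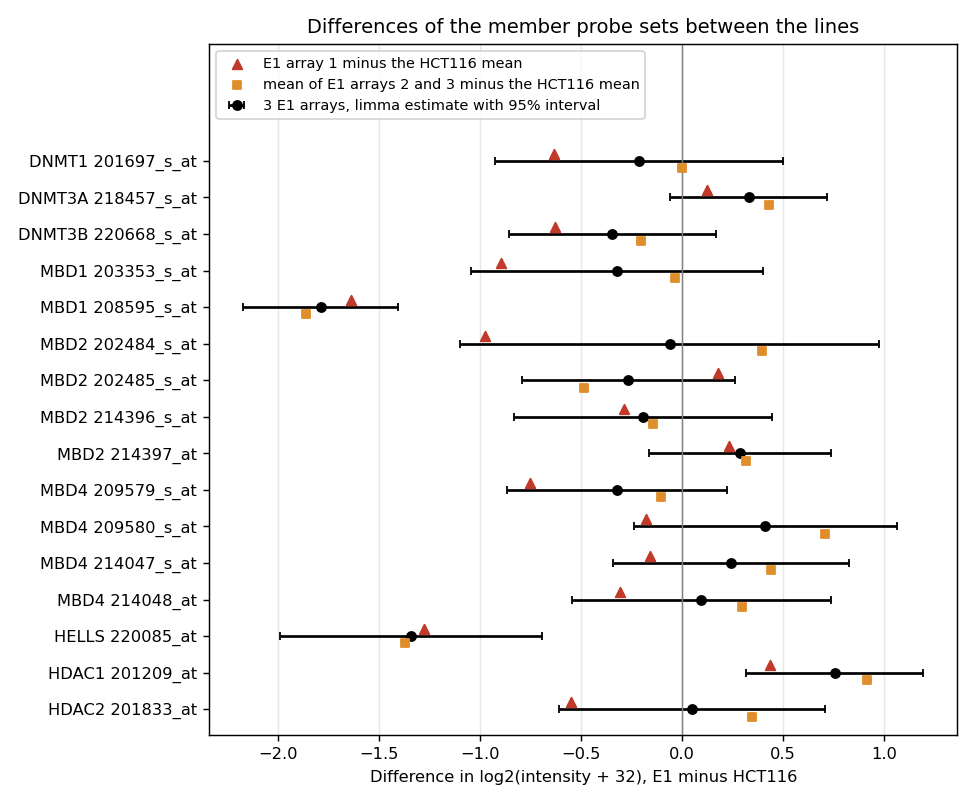
Difference in log2(intensity + 32) between E1 and HCT116 for the 16 probe sets; black circles with bars are the limma estimate over all arrays with its 95% interval, triangles E1 array 1 alone and squares the mean of E1 arrays 2 and 3, each against the mean of HCT116. The interval lies wholly below 0 for MBD1 208595_s_at and HELLS and wholly above 0 for HDAC1, before adjustment over all probe sets, and the triangle and the square lie on opposite sides of 0 for 7 of the 16: HDAC2, MBD2 202484_s_at and 202485_s_at, MBD4 209580_s_at, 214047_s_at and 214048_at, and DNMT1, whose square is at 0.0015.

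The E1 arrays were thus not alike in these genes. On E1 array 1, 9 of the 16 probe sets read below all HCT116 arrays and 2 above, where 34% and 24.2% of all probe sets did. On E1 array 2, 3 read below and 8 above, against 37.1% and 26% of all probe sets, and on E1 array 3, 5 read below and 7 above, against 32% and 35.3%. With E1 array 1 alone the median difference of the 16 was -0.43, beside -0.05 over all probe sets.

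Cell cycle genes also varied between the arrays of a line. The summed intensity of 15 replication and division genes was 29990, 14382 and 25323 in HCT116 and 12339, 24330 and 14125 in E1, lowest on E1 array 1 as for DNMT1. Of their 30 probe sets 0 were called by limma, 25 were lower and 5 higher by sign, and the median was -0.53. At unadjusted p under 0.05, 13 were lower, where 11.7% of all probe sets were. These 13 came only from MCM2, MCM4, MCM5, MCM7, MKI67 and RRM1, some with several probe sets that are not independent of each other. The replication helicase subunits MCM4 (212142_at) and MCM5 (216237_s_at) led them at -1.64 and -1.60 (adjusted p = 0.105 and 0.128), or -1.09 and -1.20 with E1 array 1 alone. MCM4 read 395, 225 and 417 in HCT116 and 140.2, 80.9 and 51.2 in E1, lower on every E1 array as HELLS was. PCNA, singled out after its values were seen, read 2134, 1029 and 1748 in HCT116 and 900.03, 2063 and 1589 in E1. From the third array downward its order was that of DNMT1, namely HCT116 array 3, E1 array 3, HCT116 array 2 and E1 array 1. The brightest was HCT116 array 1 for PCNA and E1 array 2 for DNMT1. How many other probe sets share this order was not counted. The part of the cell cycle in the levels of DNMT1 and HELLS was not tested.

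The remaining partners of the methyltransferases and the other methyl-CpG readers were not called. Over the whole array 0.77% of probe sets were called. At unadjusted p under 0.05 in limma, 11.7% were lower and 4.75% higher. These shares are the background for the counts of this and the following lists. Of 6 probe sets of PCNA, USP7, TRDMT1 and DNMT3L, 0 were called and 0 passed unadjusted p under 0.05 in limma, with a median of -0.19. USP7, a deubiquitinase known to stabilise DNMT1, stood at -0.48 (201499_s_at) and -0.27 (222032_s_at) with the probe sets of smallest p. The latter was dim, at 9.58 to 41.1 over all arrays, and the remaining USP7 probe set, 201498_at, stood at -0.17. With E1 array 1 alone they stood at -0.74, -0.24 and -0.69. Of 6 probe sets of other readers, 0 were called and 3 were lower at unadjusted p under 0.05. These were ZBTB38, a zinc finger reader, at -0.57 (adjusted p = 0.184, and -0.30 with E1 array 1 alone), and 2 of the 3 probe sets of the NuRD subunit MBD3, at -0.97 and -1.26 (adjusted p = 0.274 and 0.284). MBD3 41160_at read 506, 313 and 405 in HCT116 and 350.3, 147 and 125 in E1, so that only E1 arrays 2 and 3, those with low 5′ signal, lay below HCT116. With E1 array 1 alone the MBD3 probe sets stood at -0.18 and -0.07. The part of the 5′ signal in them was not tested.

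Among 12 probe sets for removal of the mark and base excision, 0 were called and 1 was lower at unadjusted p under 0.05. It was GADD45B 209305_s_at, of a stress gene, at -0.86 (adjusted p = 0.254), and the thymine DNA glycosylase TDG (203742_s_at) followed at -0.26. They stood at -0.64 and -0.48 with E1 array 1 alone. The other GADD45B probe sets overlapped between the lines and stood at -0.67, -0.25 and -0.27. The brighter TDG probe set, 203743_s_at, stood at 0.12, or -0.41 with E1 array 1 alone. Of 13 probe sets for supply of the methyl donor, 0 were called and 1 was lower at unadjusted p under 0.05, that of AHCY, which clears the product that inhibits methyltransferases, at -0.56 (adjusted p = 0.273). AMD1 (201197_at), which draws on the methyl donor for polyamine synthesis, stood at 0.73 (adjusted p = 0.321). Its other probe set, 201196_s_at, stood at 0.11. AHCY stood at -0.23 and AMD1 201197_at at 0.16 with E1 array 1 alone.

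The complexes and relatives of the deacetylases gave no call. Of 23 probe sets of Sin3, NuRD and CoREST subunits 0 were called in limma, while 4 were lower and 1 higher at unadjusted p under 0.05, and the median was -0.15. The NuRD remodeller CHD4 (201182_s_at) read 243, 208 and 293 in HCT116 and 79.4, 95.6 and 22.2 in E1, a difference of -1.60 (SE 0.34, adjusted p = 0.112), and of -1.32 with E1 array 1 alone. Another CHD4 probe set, 201183_s_at, stood at -0.91 and the NuRD subunit MTA2 at -1.01 (adjusted p = 0.202), but at -0.35 and -0.46 with E1 array 1 alone. All E1 arrays lay below all HCT116 arrays for these 3 probe sets, a separation seen in 13% of all probe sets. The remaining CHD4 probe set, 201184_s_at, overlapped between the lines and stood at -0.37, or 0.04 with E1 array 1 alone. It was named after its values were seen. Of 9 probe sets of other zinc-dependent deacetylases 0 were called and 1 was higher at unadjusted p under 0.05, that of HDAC9 at 0.61 (adjusted p = 0.232), or 0.41 with E1 array 1 alone, followed by HDAC4 at 0.43. Of 13 sirtuin probe sets 0 were called and 2 were lower at unadjusted p under 0.05, those of SIRT7 at -0.93 and SIRT6 at -1.46 (adjusted p = 0.173 and 0.231). Their differences were -0.57 and -0.41 with E1 array 1 alone and -1.10 and -1.99 with the mean of E1 arrays 2 and 3. The low 5′ signal of those arrays moved with the size of both differences, and its part in them was not tested.

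Chromatin modifiers around the methyl mark were mixed. Of 17 probe sets for histone methylation and heterochromatin 0 were called and 2 were lower at unadjusted p under 0.05. These were the histone methyltransferases EHMT1 at -0.62 (adjusted p = 0.208) and SETDB1 (214197_s_at) at -0.29 (adjusted p = 0.285). They stood at -0.48 and -0.34 with E1 array 1 alone. The other SETDB1 probe set, 203155_at, stood at -0.12. Of 28 probe sets of SNF2 remodellers, the family of HELLS, 0 were called, with 4 lower and 4 higher at unadjusted p under 0.05. ATRX gave both signs, at -0.93 (208859_s_at) and -0.60 (211022_s_at) and at 0.56 (208861_s_at) and 0.14 (208860_s_at). The former were dimmer, with HCT116 means of 78.1 and 26.6, against 308 and 140 for the latter. With E1 array 1 alone these ATRX probe sets stood at -1.05, -0.42, 0.41 and -0.10. SMARCA2 stood at -0.55 on a dim probe set, 206544_x_at, while its other probe sets lay between -0.03 and 0.15.

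Genes whose promoters are known to be controlled by DNA methylation were described last. Of 26 probe sets of 12 imprinted genes, 1 was called, that of PEG10, a paternally expressed gene derived from a retrotransposon. Over the whole array 0.77% of probe sets were called. At unadjusted p under 0.05 in limma, 3 were higher and 2 lower, beside 4.75% and 11.7% of all probe sets. The median of the list was 0.09. PEG10 (212094_at) read 48.5, 17.9 and 38.4 in HCT116 and 176.8, 144 and 198 in E1. Every E1 array lay above every HCT116 array, a separation seen in 7.45% of all probe sets. PEG10 rose by 1.63 (SE 0.21, adjusted p = 0.0387), and stood at 1.67 with E1 array 1 alone. Its other probe set read 38.1, 41.7 and 32.4 in HCT116 and 151, 105 and 93.6 in E1, a difference of 1.08 (adjusted p = 0.0622). The call of 212094_at was lost when any HCT116 array or E1 array 2 or 3 was left out, at adjusted p of 0.098 to 0.160, with an offset of 1, at 0.0697, and once probe sets with _x_at or _s_at identifiers were dropped, at 0.0613. Of the imprinted genes with lower signal in E1, PLAGL1 (209318_x_at) stood at -0.84 and GRB10 (209410_s_at) at -0.48 (adjusted p = 0.166 and 0.198). Both were named after their values were seen, and they stood at -1.29 and -0.26 with E1 array 1 alone. All E1 arrays lay below all HCT116 arrays for these 2 probe sets, a separation seen in 13% of all probe sets. The lines overlapped in the others of both genes. CDKN1C (213348_at), also named after its values were seen, stood at 0.72 (adjusted p = 0.190), or 0.61 with E1 array 1 alone. All its E1 arrays lay above all HCT116 arrays, as in 7.45% of all probe sets. The other CDKN1C probe sets stood between 0.13 and 0.32.

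Cancer-testis genes, which are kept silent by methylation outside the germline, gave 0 calls among 19 probe sets of 15 genes, and 0 passed unadjusted p under 0.05 in limma. PAGE1 and MAGEC2, with the smallest p, stood at 0.28 and -0.22 on dim probe sets. MAGEB2 (206218_at), singled out after its values were seen, was bright in both lines, at 1857, 1424 and 1653 in HCT116 and 1403, 2187 and 2383 in E1, and its arrays overlapped. The median of the list was 0.06.

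**Figure D4:**
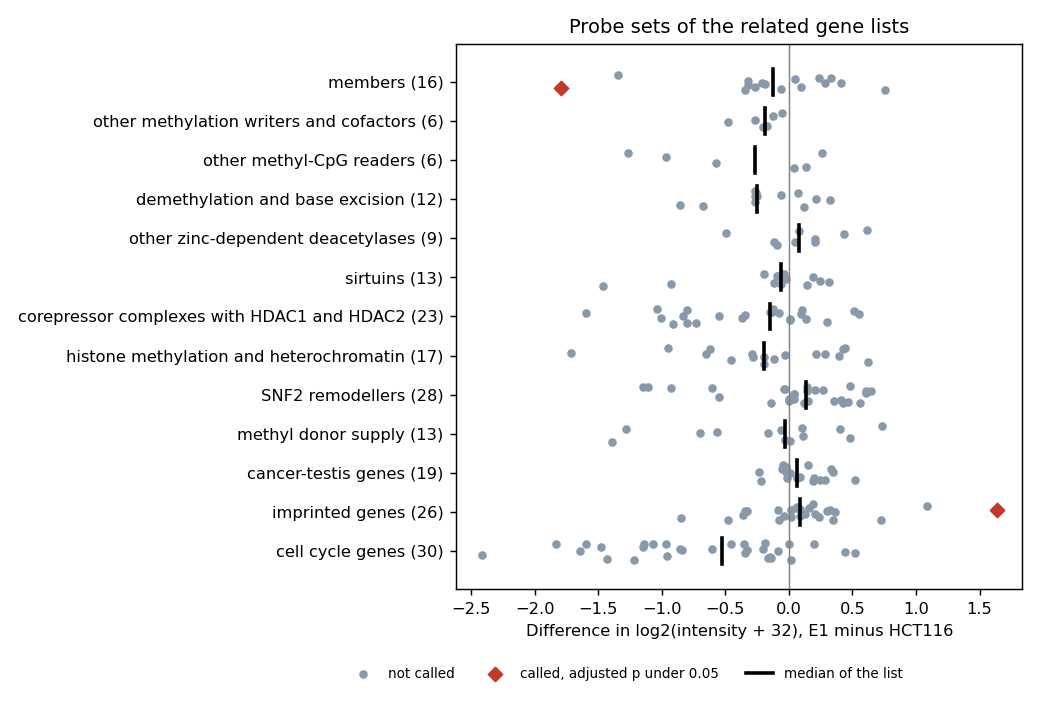
Difference in log2(intensity + 32), E1 minus HCT116, of every probe set of the 9 genes (top) and of 12 related gene lists, with the number of probe sets in brackets, a black line at the median of each list and diamonds for the called probe sets. The called probe sets are MBD1 208595_s_at at -1.79 and PEG10 212094_at at 1.63, and the cell cycle list has its median at -0.53.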

How the data were processed

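Total RNA of the 2 lines was labelled with biotin and hybridised to Affymetrix arrays, per the labels' protocols. The deposited table gives 1 linear intensity per probe set and array, from 0.0379 to 12154; the authors' summarization, background correction and scaling were not given in the sources used here, and array medians were 48.1 to 66.6. The number of arrays, 3 per line, limits the precision. Control probe sets, 68 in number, were not tested. Of the others 19065 carried 1 gene symbol and were named, 1043 carried several and 2107 were not listed. Intensities were transformed as log2(intensity + 32) without further normalization and compared by lmFit and eBayes of limma 3.58.1 (R 4.3.3), with two-sided tests. Every column belonged to 1 of the 6 arrays. Some listed genes were not analysed here.

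The genes and lists were chosen with earlier results of these data known. The rule named all probe sets of the 9 genes, up to 4 called probe sets of each other list or else the 2 with the smallest p, and the 3 genes most like the leading probe set. Scripts were tested on simulated data. Alternatives were 2 normalizations, offsets of 1 or 100, omission of the dimmest 40% of probe sets, 2 ways to give 1 value per gene, leaving out probe sets ending in _x_at or _s_at, a trended robust fit, a replicate block, leaving out each array, E1 array 1 alone and the GAPDH ratio as a covariate. Whether the replicate numbers pair the arrays is not known, and they were not taken as pairs in the main fit.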

Additional observations from a re-analysis of the deposited data

How the results depend on the processing

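Over the whole array 171 probe sets were called, 48 higher and 123 lower in E1. The count was 187 (79 higher, 108 lower) with quantile normalization, 206 (79 and 127) with array medians subtracted, which moved the median difference of all probe sets from -0.02 to 0.13, 310 (73 and 237) without the lowest 40% of probe sets, 231 with a trended robust fit, 135 with an offset of 1 and 111 (28 and 83) with an offset of 100. It was 50 (26 and 24) with the brightest probe set per gene, 47 (22 and 25) with probe sets averaged per gene, 28 (10 and 18) when those named _x_at or _s_at were dropped, 6 (1 and 5) with the GAPDH ratio as a covariate and 0 with E1 array 1 alone. Leaving out 1 array gave 5 to 2358 calls, 1 to 399 higher and 4 to 1959 lower, the highest without E1 array 1.

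Of the 16 probe sets, 1 was called in limma, and 0 with the brightest probe set or the mean per gene, without those named _x_at or _s_at, with E1 array 1 alone or with the covariate; an offset of 1 called 2, both lower. Leaving out 1 array called 0 to 3, with 0 to 2 higher and 0 to 1 lower. MBD1 208595_s_at had an adjusted p of 0.206 with E1 array 1 alone, 0.128 with the covariate and 0.0854 with the mean of its probe sets, at differences of -1.64, -1.63 and -1.06. The related lists, with 1 call, gave 2 with either normalization, 4 without the lowest 40%, 0 with an offset of 1, without _x_at or _s_at, with E1 array 1 alone or with the covariate, and 0 to 26 when 1 array was left out.

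With the replicate number as a block no probe set was called, 0 over the array, 0 of the 16 and 0 in the lists (3126 at unadjusted p under 0.05 in limma), and MBD1 208595_s_at had an adjusted p of 0.141. Deviations of same-numbered arrays correlated at -0.04, -0.31 and -0.09 over probe sets, so the numbers were not taken as pairs.

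Signs turned for probe sets that were not called. With E1 array 1 alone and with the covariate, HDAC2 stood at -0.55 and -0.52, MBD2 202485_s_at at 0.18 and 0.17, and MBD4 209580_s_at, 214047_s_at and 214048_at at -0.18, -0.16 and -0.31 and at -0.15, -0.18 and -0.34. MBD2 202484_s_at was 0.089 with array medians subtracted, and the mean of the probe sets was -0.058 for MBD2 and 0.11 for MBD4. Leaving out 1 array gave 0.0015 at most for DNMT1 (lowest -0.48), -0.42 to 0.40 for MBD2 202484_s_at, -0.36 to 0.090 for MBD2 214396_s_at, -0.11 to 0.30 for MBD4 214048_at and -0.14 to 0.35 for HDAC2. The cause of these turns was not tested. Low signal limits DNMT3A, HELLS in E1 and the dim probe sets of MBD2 and MBD4.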
